A study of Mus musculus with 5 samples.

Results

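The pericentral cells described here are the third of the hepatocytes of each mouse whose RNA leaned most toward genes of the central vein side of the liver lobule. For every cell, UMIs (unique molecular identifiers, 1 per captured mRNA molecule) of 6 pericentral genes (Cyp2e1, Glul, Oat, Cyp1a2, Rgn, Lect2) and of 6 periportal genes (Cyp2f2, Sds, Hal, Hsd17b13, Ass1, Uroc1) were each summed per 10000 UMIs of the cell. The score was the log of the pericentral sum plus 1 over the periportal sum plus 1. Members were chosen by these 12 measured values alone: cells were ranked by the score within each mouse, and the third with the highest scores was taken. This gave 149 members of 449 ranked cells, out of 454 in all: 44 of 132 in LFD mouse 1, 28 of 84 in LFD mouse 2, 69 of 208 in HFD mouse 2 and 8 of 25 in HFD mouse 3. HFD mouse 1 had 5 cells and was not ranked. The other 300 cells were 151 midlobular cells, next in rank, and 149 periportal cells, the lowest in rank.

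The cells came from the series' Drop-seq experiments on hepatocytes of male C57BL/6J littermates. Mice were 8 weeks old when the groups were formed and then had 12 weeks of a regular diet (LFD) or a high fat diet (HFD). The comparison within a mouse asks how hepatocytes at the pericentral end of the score differ from the rest, and the comparison between diets asks how they responded to the high fat diet. With 2 mice per diet, p-values for diet measure the spread between these few animals. For comparisons within mice, p-values rest on how much the difference between the cells compared varied from mouse to mouse. HFD mouse 3 gave few cells. The form of its raw-read name differs from that of the other mice, and whether it was sequenced in another run is not stated.

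Blood enters the liver lobule at the portal tract and leaves through the central vein, and hepatocytes divide their work along that path. Periportal cells, which see the most oxygen, are known for urea and glucose synthesis and for secreted proteins. Pericentral cells are known for glutamine synthesis, drug-metabolising cytochromes P450, glutathione conjugation and bile acid synthesis, and are held in that state by Wnt ligands of the central vein endothelium acting through beta-catenin and its DNA-bound partners, the TCF/LEF factors.

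Because beta-catenin is the textbook regulator of the pericentral programme, the promoters of 3 genes that were higher in the third are shown with the TCF/LEF core CTTTGA, or its reverse complement TCAAAG, in capitals. Each is the 250 bases before the RefSeq transcription start on build GRCm38.p6, 5′ to 3′ on the gene's strand. The Aldh1a1 window is chr19:20492333-20492582 on the plus strand, the Cyp2c29 window is chr19:39286835-39287084 on the plus strand, and the Acaa1b window is chr9:119157094-119157343 on the minus strand.
Aldh1a1: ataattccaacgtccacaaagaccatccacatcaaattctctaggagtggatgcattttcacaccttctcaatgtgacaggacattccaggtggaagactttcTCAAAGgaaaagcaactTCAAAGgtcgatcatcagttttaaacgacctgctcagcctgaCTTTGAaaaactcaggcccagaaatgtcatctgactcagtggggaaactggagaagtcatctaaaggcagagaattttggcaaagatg
Cyp2c29: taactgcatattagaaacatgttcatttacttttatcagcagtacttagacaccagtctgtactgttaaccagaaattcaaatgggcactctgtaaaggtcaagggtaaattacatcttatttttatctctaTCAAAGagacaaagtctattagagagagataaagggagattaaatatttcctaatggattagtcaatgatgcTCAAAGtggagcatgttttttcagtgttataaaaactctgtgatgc
Acaa1b: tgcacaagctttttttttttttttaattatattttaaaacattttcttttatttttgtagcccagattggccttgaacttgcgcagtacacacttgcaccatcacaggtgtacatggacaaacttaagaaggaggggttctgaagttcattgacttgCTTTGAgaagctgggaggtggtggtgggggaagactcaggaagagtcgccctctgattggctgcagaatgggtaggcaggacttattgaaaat
The Aldh1a1 window held 3 matches, the nearest beginning at -88 from the start, Cyp2c29 held 2 (nearest at -46), and Acaa1b held 1 (at -93). Over whole gene groups the core was not more frequent. It was found on either strand in 8 of the 60 genes called higher in the third that had a promoter in the table (13.3%), in 8 of 57 called lower (14.0%), in 210 of 1623 tested genes (12.9%) and in 4544 of all 32851 promoters (13.8%). A match describes these letters only.

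The score genes show how sharply the ranking separated the cells, and since they chose the members they are described with no test. Throughout, 4 values in a row are LFD mouse 1, LFD mouse 2, HFD mouse 2 and HFD mouse 3, in CPM (UMIs of the gene per 1000000 UMIs summed over the cells). Cyp2e1, an ethanol- and drug-oxidising cytochrome, was at 3782, 4032, 4139 and 2262 in the pericentral cells, 1051, 1001, 612 and 1537 in the midlobular cells and 220.5, 73.1, 122 and 141 in the periportal cells. The step was steep in 3 mice and shallow in HFD mouse 3, whose midlobular cells had the highest midlobular level of the 4 mice. Oat, ornithine aminotransferase, was at 932, 951, 617 and 226 against 108, 18.3, 18.1 and 47.0 periportally. Cyp1a2, a further drug-metabolising cytochrome, was at 851, 790.4, 369 and 169.6 against 69.9, 9.13, 4.53 and 0 periportally. Both were lower in the third of each HFD mouse than in that of each LFD mouse, as were 21.7% of the genes tested for diet. Since Oat and Cyp1a2 helped to choose the members, this describes the cells chosen and is no comparison of diets. Rgn, a calcium-binding gluconolactonase, was at 1541, 1808, 1603 and 1074 and Lect2, a secreted hepatokine, at 224, 295, 345 and 226. Lect2 did not separate the ends in HFD mouse 3, where the periportal cells had 188 CPM.

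Glul, glutamine synthetase, marks the innermost cells around the vein. It stood at 358, 295, 434 and 0 in the pericentral cells. For the 8 cells of HFD mouse 3, 3 counts would be 170 CPM. A gene held by few cells can be missed in 8 cells at a higher level, so the 0 sets no firm limit. In HFD mouse 2, 12 of 69 cells (17.4%) held its 107 UMIs, and 4 of those cells held 95 of them. In that mouse's periportal cells 6 of 69 cells (8.70%) held 1 Glul UMI each, at a median of 2357 UMIs per cell against 2369 in the pericentral cells. Its midlobular cells had a larger share than the pericentral cells, 16 of 70 (22.9%), with 22 UMIs in all. In the LFD mice the pericentral share was the larger, 38.6% against 20.5% midlobular in LFD mouse 1 and 42.9% against 35.7% in LFD mouse 2. With the members of each mouse divided at their middle rank, Glul was at 577, 515 and 888 in the inner members (highest scores) of LFD mouse 1, LFD mouse 2 and HFD mouse 2 and at 168, 120.1 and 23.2 in the outer members. Of the periportal score genes, Cyp2f2 fell from 1721, 2119, 1032 and 1176 in the periportal cells to 519.7, 147, 101 and 56.5 in the pericentral cells, while Ass1, of the urea cycle, was still at 717, 938, 467 and 848 there against 995, 1324, 987 and 1364.

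**Figure D1:**
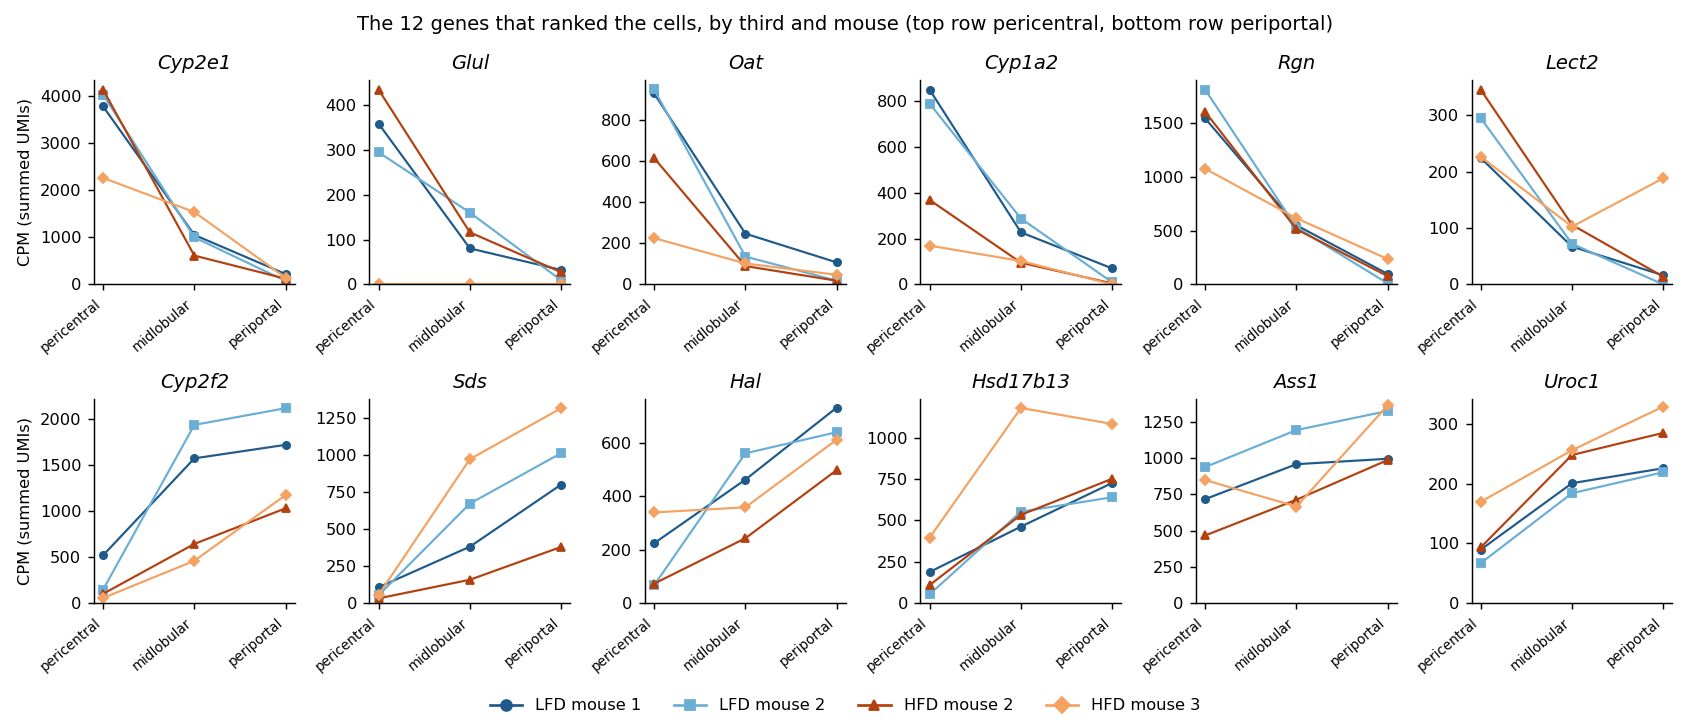
CPM of the summed UMIs (vertical axis) of the 12 score genes in pericentral, midlobular and periportal cells (horizontal axis), 1 line per mouse. Cyp2e1 falls from between 2262 and 4139 CPM in the pericentral cells to at most 221 in the periportal cells, Glul is at 0 throughout HFD mouse 3, and Ass1 keeps 467 to 938 CPM pericentrally.

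The third is a range of the score and not a cell type with an edge. The last member and the first cell left out had scores of 0.281 and 0.244 in LFD mouse 1, of 0.810 and 0.696 in LFD mouse 2, and of 0.591 and 0.535 in HFD mouse 2. In HFD mouse 3 both were 0, since 3 cells tied there with no UMI difference between the sums, and file order placed 2 inside. Within 0.25 of the cut lay 16 of the 149 members and 19 other cells. Median scores of the members were 1.19, 1.63, 2.12 and 0.881, so members in HFD mouse 3 leaned less to the pericentral side.

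The members were hepatocytes by their markers: 9 of the 11 hepatocyte markers outside the score were found in over 50% of the members of every mouse. The third held 111593, 74649, 246436 and 17684 UMIs, so a gene with no UMI could be as high as 26.9, 40.2, 12.2 and 170 CPM, the levels that 3 counts would give. These limits treat UMIs as independent and can be too low for a gene whose UMIs sit in few cells. Median UMIs per member were lower than in the other cells in both LFD mice (1914.5 against 3022.5 and 2565.5 against 3263) and higher in both HFD mice (2369 against 2057 and 1906 against 1791). No cell barcode was shared between libraries. Markers of other cells were sparse: B cell markers were at 0, T or NK cell markers reached 1 UMI at most, and in the third cholangiocyte markers reached 1 UMI at most. In some lists a single cell carried most of the UMIs, with 12 of the 13 erythroid UMIs of HFD mouse 3 in 1 cell, 7 of the 12 macrophage UMIs of LFD mouse 1 in 1 cell and all 8 cycling UMIs of LFD mouse 2 in 1 cell. HFD mouse 2 had markers in the third that were rare or missing in its other cells: 9 erythroid UMIs in 8 cells against 0, 7 UMIs of central vein endothelial markers in 3 cells against 0, and 6 stellate UMIs in 3 cells against 2. Over the 4 mice, central vein endothelial markers came to 9 UMIs in the third and 1 in the other cells, and Wnt2 and Wnt9b were at 0 throughout. The part of these UMIs in the results was not tested beyond the following count. Leaving out the 12 cells of both sides with 3 or more such UMIs gave 159 genes called against the other cells where 155 were called with them.

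At equal depth, members had more genes detected than the other cells of their mouse. The 337 of 449 ranked cells with at least 1727 UMIs, 108 of the 149 members among them, were thinned to that number, and shallower cells were left out (5 of 8 members and 9 of 17 other cells remained in HFD mouse 3). The median was then 792 ± 25.4 genes in the third and 713 ± 19.8 in the other cells (mean ± SD of 4 mice), higher in 4 of 4 mice. An exact two-sided sign-flip test gave p = 0.125, which is the smallest p that 4 mice allow. The mitochondrial share of UMIs was 5.24% ± 0.314 in the third and 5.48% ± 0.50 in the other cells (SD, n = 4), higher in 2 of 4 mice (p = 0.75, exact sign-flip test).

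Outside the score genes, the third was marked by enzymes and transporters that handle foreign compounds and lipids, and by lower transcripts of secreted proteins, of some enzymes of glucose and urea synthesis, and of some major urinary proteins. In limma voom with the mouse as a term, 155 of 2008 genes passed an adjusted p of 0.05 (7.72%), 77 higher (3.83%) and 78 lower (3.88%) in the third than in the other cells. Of the 155, 121 had the same direction in all 4 mice, against 463 of all 2008 genes (23.1%). Without 1 cell of HFD mouse 3, described with the diet comparison, 96 were called, all of them among the 155. Without LFD mouse 2, 81 genes were called, and without HFD mouse 3, 253. The 23 genes in the plot of named genes passed the threshold in each of those fits and without LFD mouse 1. Without HFD mouse 2, Aldh3a2 and Fitm1 had too few UMIs to be tested, and the rest of the plotted genes passed. With means of the deposited log values, the calls of Nr1i3, Cyp4a10, Fgb, Hrsp12 and Fgg among the 23 were lost.

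The steepest gene was Cyp2a5, a cytochrome that oxidises coumarin and nicotine, on chromosome 7 (26835305 to 26843548, GRCm38). It was at 412, 710.0, 154 and 679 CPM in the third and 29.8, 55.5, 2.44 and 24.5 in the other cells (log2 difference 3.94, SE 0.34, adjusted p = 1.27e-09, limma). All 4 mice were higher in the third by more than their spread, with 11 of the 12 UMIs of HFD mouse 3 in 1 cell, without which the difference was 3.59. Not every member had it: 43.2%, 78.6%, 23.2% and 25% of members had a Cyp2a5 UMI, against 9.09%, 10.7%, 1.45% and 0% of periportal cells, and 0 of 8 cells allows a share with a UMI of up to 36.9% (exact 95% Clopper-Pearson limit, counting error only). Cyp2c50, of the Cyp2c cluster on chromosome 19, was at 663, 991, 532 and 113 against 191, 265, 97.5 and 49.0 (log2 difference 1.88, SE 0.20, adjusted p = 6.52e-08), and its HFD mouse 3 value rests on 2 UMIs. Cyp2c29, of the same cluster, was at 2652, 2733, 1051 and 339 against 406, 414, 217 and 539 (log2 difference 2.24, SE 0.22, adjusted p = 7.55e-09). It was higher in 3 of 4 mice and lower in HFD mouse 3, where the third had 6 UMIs. Cyp4a10, a fatty acid omega-hydroxylase, was at 170.3, 134, 312 and 113 against 65.6, 17.1, 53.6 and 73.6 (log2 difference 1.92, SE 0.31, adjusted p = 5.20e-05).

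Across the cytochrome list of pericentral and drug-metabolising members, 25 of 40 genes were tested, 18 lay above 0, and 10 rose while 0 fell, with a median log2 difference of 0.44 against -0.01 over all genes. The others called were Cyp2c67, Cyp2c37, Cyp2c54, Cyp2c68, Cyp4a14 and Por, the electron donor of these enzymes. Members of the Cyp2c and Cyp4a families are close in sequence, and the sources used here do not say how reads shared by paralogs were counted. The list was 1.79%, 1.8%, 0.997% and 1.05% of UMIs in the third and 1.13%, 1.16%, 0.566% and 0.804% in the other cells. Its share was thus higher in the third of every mouse, while the members of both HFD mice lay below the other cells of both LFD mice.

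Of the conjugation and xenobiotic enzymes, 10 rose and 1 fell. Aldh1a1, which oxidises retinal and other aldehydes, was at 1075, 1474, 1915 and 1696 against 373, 512, 592 and 539 (log2 difference 1.46, SE 0.16, adjusted p = 6.52e-08, limma). Its ratio was close to the same in every mouse. Aldh3a2, a fatty aldehyde dehydrogenase, was at 108, 214, 454 and 509 against 26.8, 17.1, 36.6 and 172 (log2 difference 2.83, SE 0.34, adjusted p = 3.15e-07). Ces2e, a carboxylesterase, was at 259.9, 214, 475 and 679 against 104, 115, 178 and 294 (log2 difference 1.13, SE 0.22, adjusted p = 0.000634). In this list 35 of 48 were tested (median 0.25). The other genes that rose were Ugt2b1, Ces1d, Ces1b, Fmo5, Fmo1, Ugt1a6a and Akr1c6, and Aox3 fell. Without the same cell of HFD mouse 3, 3 rose and 1 fell.

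Glutathione transferases, which attach glutathione to reactive compounds, went both ways. Of 12 tested of 21, Gstm1, Gsta3 and Mgst1 rose and Gstp1 fell (median 0.31). Gstm1 was at 2312, 2344, 1270.1 and 1244 against 1116, 887, 617 and 858 (log2 difference 0.95, SE 0.15, adjusted p = 5.89e-05). Gsta3 was at 2097, 2318, 2398 and 848 against 934, 776, 1175 and 956 (log2 difference 0.96, SE 0.17, adjusted p = 0.000185), higher in all mice but HFD mouse 3. Gstp1, of the pi class, was at 2527, 1031, 345 and 509 against 3615, 1860.1, 772 and 637 (log2 difference -0.90, SE 0.17, adjusted p = 0.000340) and lower in 4 of 4 mice. Gst genes are a family of similar sequences, and the same limit on shared reads holds.

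Of 35 known Wnt/beta-catenin targets and receptors outside the score, 5 had enough UMIs to test. All of these lay above 0 and 3 rose (median 0.86); since a gene can reach the minimum through the side where it is high, this count stands for tested genes only. Gulo, the last enzyme of vitamin C synthesis, was at 215, 322, 243 and 56.5 against 41.8, 46.9, 21.9 and 0 (log2 difference 2.70, SE 0.31, adjusted p = 1.81e-07, limma), with 1 UMI in HFD mouse 3. Nr1i3, the xenobiotic receptor CAR that switches on cytochrome genes, was at 197, 121, 329 and 283 against 26.8, 29.9, 36.6 and 196 (log2 difference 2.44, SE 0.34, adjusted p = 4.42e-06). The gap was wide in 3 mice and narrow in HFD mouse 3. Cyp27a1, of bile acid synthesis, was at 323, 362, 211 and 0 against 212, 162, 75.5 and 24.5 (log2 difference 0.86, SE 0.24, adjusted p = 0.0237), with adjusted p = 0.155 without LFD mouse 2, 0.197 without HFD mouse 2 and 0.0660 without the 1 cell.

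Among uptake and bile acid genes, Slco1b2, a transporter of bile acids and drugs from blood, was at 2097, 2827, 3084 and 1753 against 817, 768, 1228 and 1471 (log2 difference 1.19, SE 0.17, adjusted p = 5.50e-06, limma). Of 19 tested bile acid genes 14 lay above 0 and 4 rose (Slco1b2, Cyp27a1, Hsd3b7 and Akr1c6), with a median of 0.27. Akr1c6 was at 2231, 2210.3, 2504 and 1583 against 1548, 1165, 1525 and 1471 (log2 difference 0.50, SE 0.15, adjusted p = 0.0333). It was no longer called when LFD mouse 1 (adjusted p = 0.0698), LFD mouse 2 (0.280), HFD mouse 2 (0.137) or the 1 cell (0.0746) was left out.

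Haem enzymes were split. Blvrb, biliverdin reductase B, was at 323, 469, 280.0 and 169.6 against 92.5, 76.8, 127 and 147 (log2 difference 1.5, SE 0.26, adjusted p = 0.000128, limma). Cpox, which makes protoporphyrinogen, was at 251, 281, 252 and 169.6 against 65.6, 89.6, 136 and 147 (log2 difference 1.16, SE 0.26, adjusted p = 0.00317), with adjusted p = 0.0515 without LFD mouse 1 and 0.0539 without LFD mouse 2. Hpx, the secreted haem carrier, fell, at 1792, 1393, 726 and 2827 against 3540.4, 3434, 1150.2 and 2746 (log2 difference -0.95, SE 0.16, adjusted p = 0.000100), with HFD mouse 3 a little above instead of below. Of the 9 tested, 2 rose and 1 fell (median 0.33).

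Among the lipid genes, peroxisomal thiolases, which take part in fatty acid oxidation, were higher. Acaa1b, a peroxisomal thiolase on chromosome 9 (119148023 to 119157093), was at 2276, 2813, 4029 and 5033 against 904, 823, 1131 and 1741 (log2 difference 1.48, SE 0.14, adjusted p = 5.18e-09, limma). Acaa1a, the sister thiolase whose sequence is close to that of Acaa1b, was at 314, 442, 321 and 396 against 245, 218, 82.9 and 294 (log2 difference 0.93, SE 0.24, adjusted p = 0.0111), with adjusted p = 0.0849 without LFD mouse 2, 0.343 without HFD mouse 2 and 0.0699 without the 1 cell. In the list of fatty acid uptake and oxidation 31 of 43 were tested, 22 lay above 0, and 4 rose while 0 fell (median 0.39), both thiolases and Fabp2, an intestinal-type fatty acid binder, among those that rose.

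Ketogenesis genes did not pass the test. Acat1, a mitochondrial acetoacetyl-CoA thiolase, was at 367, 348, 649 and 565 against 304, 303, 499.6 and 441 (log2 difference 0.18, SE 0.19, adjusted p = 0.680, limma). The 4 tested of 6 listed lay above 0 with a median of 0.36, none of them called. The 7 lipid droplet genes tested, of 19 listed, also lay above 0 (median 0.47) and 1 rose. That was Fitm1, which helps droplets form, at 161, 241, 195 and 113 against 17.9, 55.5, 58.5 and 24.5 (log2 difference 1.95, SE 0.31, adjusted p = 5.04e-05, limma). As with the Wnt targets, both counts stand for tested genes only.

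Fat and sterol synthesis did not move as a group. Of 17 lipogenesis genes tested, Elovl3 and Agpat2 rose and Acly fell (median 0.16). Elovl3, an elongase of very long fatty acids, was at 296, 295, 304 and 113 against 101, 93.9, 136 and 0 (log2 difference 1.38, SE 0.25, adjusted p = 0.000260, limma). Agpat2, of triglyceride synthesis, was at 323, 362, 337 and 396 against 206, 149, 158 and 196 (log2 difference 0.86, SE 0.21, adjusted p = 0.00814), with adjusted p = 0.0922 without LFD mouse 2 and 0.0526 without HFD mouse 2. Acly, which makes cytosolic acetyl-CoA, was at 134, 188, 126 and 226 against 304, 354, 378 and 147 (log2 difference -1.26, SE 0.25, adjusted p = 0.000771), lower in all mice but HFD mouse 3. Of 10 cholesterol genes 1 rose (median 0.14), Hmgcs1, at 305, 281, 475 and 113 against 131, 256, 249 and 0 (log2 difference 0.80, SE 0.24, adjusted p = 0.0398). Leaving out LFD mouse 1 (adjusted p = 0.232), HFD mouse 2 (0.121) or the 1 cell (0.105) ended that call.

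**Figure D2:**
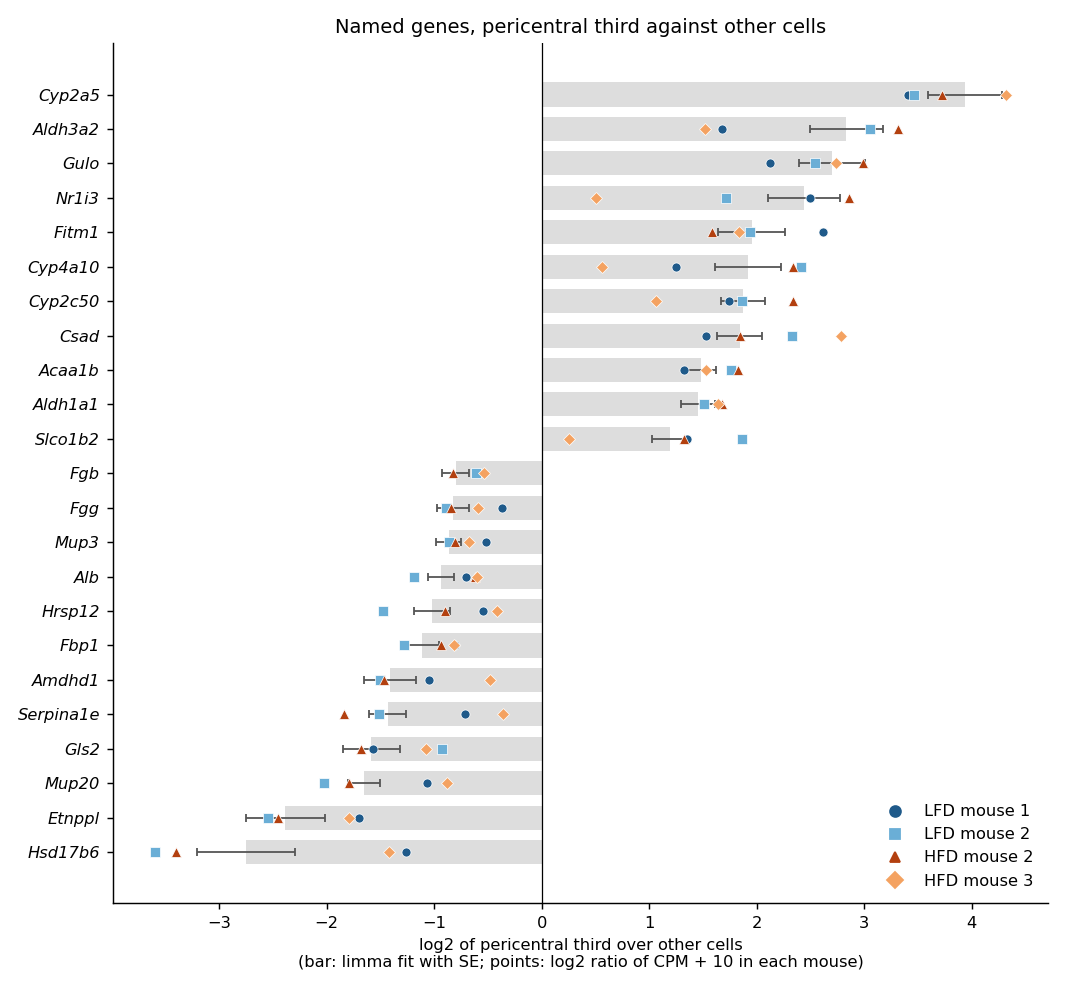
Log2 difference between the pericentral cells and the other cells (horizontal axis) for 11 named genes that were higher and 12 that were lower (vertical axis). Bars are the limma fit with its SE, and points are the log2 ratio of CPM plus 10 in each mouse. All points of a gene lie on the side of its bar, from Cyp2a5 at 3.94 to Hsd17b6 at -2.75, and HFD mouse 3 is nearest to 0 for Nr1i3, Slco1b2 and Cyp4a10.

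On the lower side, albumin led by abundance. Alb was at 26534, 21259.5, 31684 and 32063 CPM in the third and 43385, 48605, 48873 and 48791 in the other cells (log2 difference -0.94, SE 0.12, adjusted p = 7.72e-07, limma). The highest pericentral level lay below the lowest level of the other cells, whichever the mouse. Serpina1e, an alpha-1-antitrypsin paralog, was at 4373, 2746, 1002 and 226 against 7197, 7858, 3607 and 294 (log2 difference -1.43, SE 0.17, adjusted p = 3.15e-07). The fibrinogen chains followed, Fgb at 4149, 4528, 4049.7 and 4128 against 6213, 6924, 7164 and 6007 (log2 difference -0.80, SE 0.13, adjusted p = 4.46e-05) and Fgg at 2276, 1875, 1798 and 1414 against 2938, 3481, 3226 and 2133 (log2 difference -0.82, SE 0.15, adjusted p = 0.000234). Trf, transferrin, the iron carrier of plasma, was at 6129, 6109, 5912 and 7577 against 8050.1, 9462, 7871 and 11573 (log2 difference -0.65, SE 0.12, adjusted p = 0.000480).

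Among secreted plasma proteins 45 of 50 were tested, 39 lay below 0, and 18 fell while 0 rose (median -0.43). Besides those named they were Hpx, Fga, Kng1, Gc, Ambp, Ahsg, Itih2, Itih3, Ttr, Hp and the paralogs Serpina1a, Serpina1b and Serpina1d. Together the list took 13.4%, 10.8%, 11.7% and 12.1% of UMIs in the third against 16.8%, 17.3%, 15.5% and 16.3% in the other cells, lower in 4 of 4 mice. The number that fell was 10 with scaling by total UMIs, 7 without LFD mouse 2 and 11 without the 1 cell.

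Complement genes showed less. Of 31 tested, C9, Cfi and C8a fell (median -0.23). C9 was at 851, 924, 467 and 622 against 1133, 1382, 673 and 760.1 (log2 difference -0.62, SE 0.16, adjusted p = 0.0156, limma), Cfi at 305, 442, 248 and 113 against 438, 448, 514 and 269.7 (log2 difference -0.75, SE 0.21, adjusted p = 0.0237) and C8a at 349, 281, 296 and 169.6 against 507, 495, 380.1 and 245 (log2 difference -0.64, SE 0.20, adjusted p = 0.0437). All 3 calls were lost without the 1 cell, and 0 complement genes were called with scaling by total UMIs. Without HFD mouse 2 the adjusted p values were 0.0852, 0.464 and 0.0856 in that order. Without LFD mouse 2 they were 0.167 for C9 and 0.294 for C8a, and without LFD mouse 1 it was 0.0774 for C8a.

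Apolipoproteins, the protein shell of lipoproteins, were lower by gene but not by sum. Of 20 tested, Apoc2, Apoa4, Apoa1, Apom and Apoc3 fell (median -0.22). Apoa1, of HDL, was at 11676, 11092, 8611 and 6220.3 against 13863, 15354, 9384 and 7184 (log2 difference -0.41, SE 0.12, adjusted p = 0.0312, limma). Apoc2, the cofactor of lipoprotein lipase, was at 1577, 804, 1355 and 1753 against 1626, 1468, 1964 and 2746 (log2 difference -0.62, SE 0.16, adjusted p = 0.0113) and Apoa4 at 35.8, 53.6, 268 and 396 against 50.7, 89.6, 470.3 and 760.1 (log2 difference -0.90, SE 0.25, adjusted p = 0.0229). The summed list nonetheless took 12.7%, 11.3%, 12.7% and 13% of UMIs in the third against 11.6%, 11.2%, 11.8% and 14.3%, so it was higher in 3 of 4 mice. None of the apolipoprotein calls held without LFD mouse 2, where adjusted p was 0.280 for Apoa1, 0.171 for Apoc2 and 0.0748 for Apoa4, and with scaling by total UMIs 1 did. Without HFD mouse 2 it was 0.413 for Apoa4, and without the 1 cell 0.0518 for Apoc2. Of 7 iron genes Trf and Cp fell (median -0.11). Cp, ceruloplasmin, was at 591, 951, 1010.4 and 792 against 1011, 1028, 1240.3 and 1275 (log2 difference -0.55, SE 0.16, adjusted p = 0.0316), and its adjusted p was 0.118 without LFD mouse 1, 0.0748 without LFD mouse 2, 0.0617 without HFD mouse 2 and 0.0771 without the 1 cell.

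Of the 8 tested urea cycle genes outside the score, 4 fell and 0 rose. Gls2, the liver glutaminase, was at 98.6, 147, 73.0 and 169.6 against 313, 290.1, 256 and 368 (log2 difference -1.58, SE 0.27, adjusted p = 0.000107, limma). Arg1, arginase, was at 941, 1098, 808 and 735 against 1387, 1497, 1316 and 1348 (log2 difference -0.74, SE 0.16, adjusted p = 0.00161), and Cps1, carbamoyl phosphate synthetase, at 1156, 1795, 852 and 1301 against 1972, 2090.4, 1277 and 1496 (log2 difference -0.63, SE 0.15, adjusted p = 0.00597). The Cps1 call was lost among thinned cells (adjusted p = 0.0762). Otc was the fourth that fell, and 3 of the 8 lay above 0 (median -0.46). The list was 0.399%, 0.478%, 0.374% and 0.396% of UMIs in the third against 0.556%, 0.590%, 0.497% and 0.466%, lower in 4 of 4 mice.

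Amino acid catabolism went both ways over 44 tested genes (median -0.03, which was 0.11 with scaling by total UMIs). Csad, Cdo1 and Hpd rose. Csad, an enzyme of taurine synthesis, was at 269, 469, 1315 and 396 against 86.5, 85.3, 358 and 49.0 (log2 difference 1.84, SE 0.21, adjusted p = 1.81e-07, limma), and the third of HFD mouse 2 had the highest level. Etnppl, Amdhd1, Agxt, Ftcd and Tat fell. Etnppl, which breaks down phosphoethanolamine, was at 53.8, 26.8, 24.3 and 56.5 against 197, 205, 178 and 221 (log2 difference -2.38, SE 0.37, adjusted p = 3.28e-05), with 15 UMIs in the members of all 4 mice together. Amdhd1, of histidine breakdown, was at 188, 147, 109.6 and 226 against 399.7, 435, 322 and 319 (log2 difference -1.42, SE 0.24, adjusted p = 0.000111). Hrsp12, a deaminase of reactive imines, was at 1013, 683, 1079 and 1470.3 against 1479, 1916, 2027 and 1961 (log2 difference -1.02, SE 0.17, adjusted p = 8.87e-05), and Hsd17b6, a steroid dehydrogenase, at 108, 0, 4.06 and 113 against 271, 111, 139 and 319 (log2 difference -2.75, SE 0.46, adjusted p = 9.02e-05), also with 15 UMIs in the members.

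Some genes of glucose synthesis were lower. Fbp1, fructose bisphosphatase, was at 932, 817, 1242 and 1470.3 against 1637, 1997, 2388 and 2599 (log2 difference -1.11, SE 0.15, adjusted p = 4.60e-06, limma). Pck1, the gate of gluconeogenesis, was at 789, 1420.0, 519 and 679 against 1389.9, 1762, 1133 and 1299 (log2 difference -0.91, SE 0.17, adjusted p = 0.000283). Of 9 tested genes 4 fell, Fbp1, Pck1 and G6pc among them, and 0 rose (median -0.28). Glycolysis and glycogen genes did not pass the test in either direction (10 tested, median -0.11, which was 0.01 with scaling by total UMIs). Khk was at 457, 388, 377 and 679 against 629, 401, 582 and 687 (log2 difference -0.51, SE 0.19, adjusted p = 0.0982) and passed without HFD mouse 3 (adjusted p = 0.0125), and Pygl was at 367, 161, 418 and 509 against 257, 311, 336 and 294 (log2 difference 0.05, SE 0.23, adjusted p = 0.938).

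Messages encoded on the mitochondrial genome were lower in the third, although the whole mitochondrial share, given above, differed little. Of 6 tested all lay below 0 and 4 fell (median -0.60). mt-Cytb was at 4489.5, 4555, 3831 and 7238 against 6621, 7107, 6068 and 7723 (log2 difference -0.67, SE 0.13, adjusted p = 0.000468, limma), mt-Co1 at 1013, 737, 580.3 and 1018 against 1652, 1019.6, 1053 and 1496 (log2 difference -0.81, SE 0.16, adjusted p = 0.000676) and mt-Nd5 at 833, 884, 775 and 1131 against 1524, 1284, 1228 and 1226 (log2 difference -0.76, SE 0.16, adjusted p = 0.00124). Their list summed to 1.42%, 1.42%, 1.25% and 2.06% of UMIs in the third and 1.98%, 1.90%, 1.75% and 2.23% in the other cells. Immediate early and heat shock genes, known to respond to handling of tissue, gave 0 calls of 11 tested (median -0.17). Jun was at 108, 214, 272 and 283 against 146, 81.1, 336 and 343 (log2 difference -0.17, SE 0.26, adjusted p = 0.801) and Hspa8 at 242, 295, 207 and 169.6 against 164, 213, 154 and 269.7 (log2 difference 0.29, SE 0.23, adjusted p = 0.577).

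**Figure D3:**
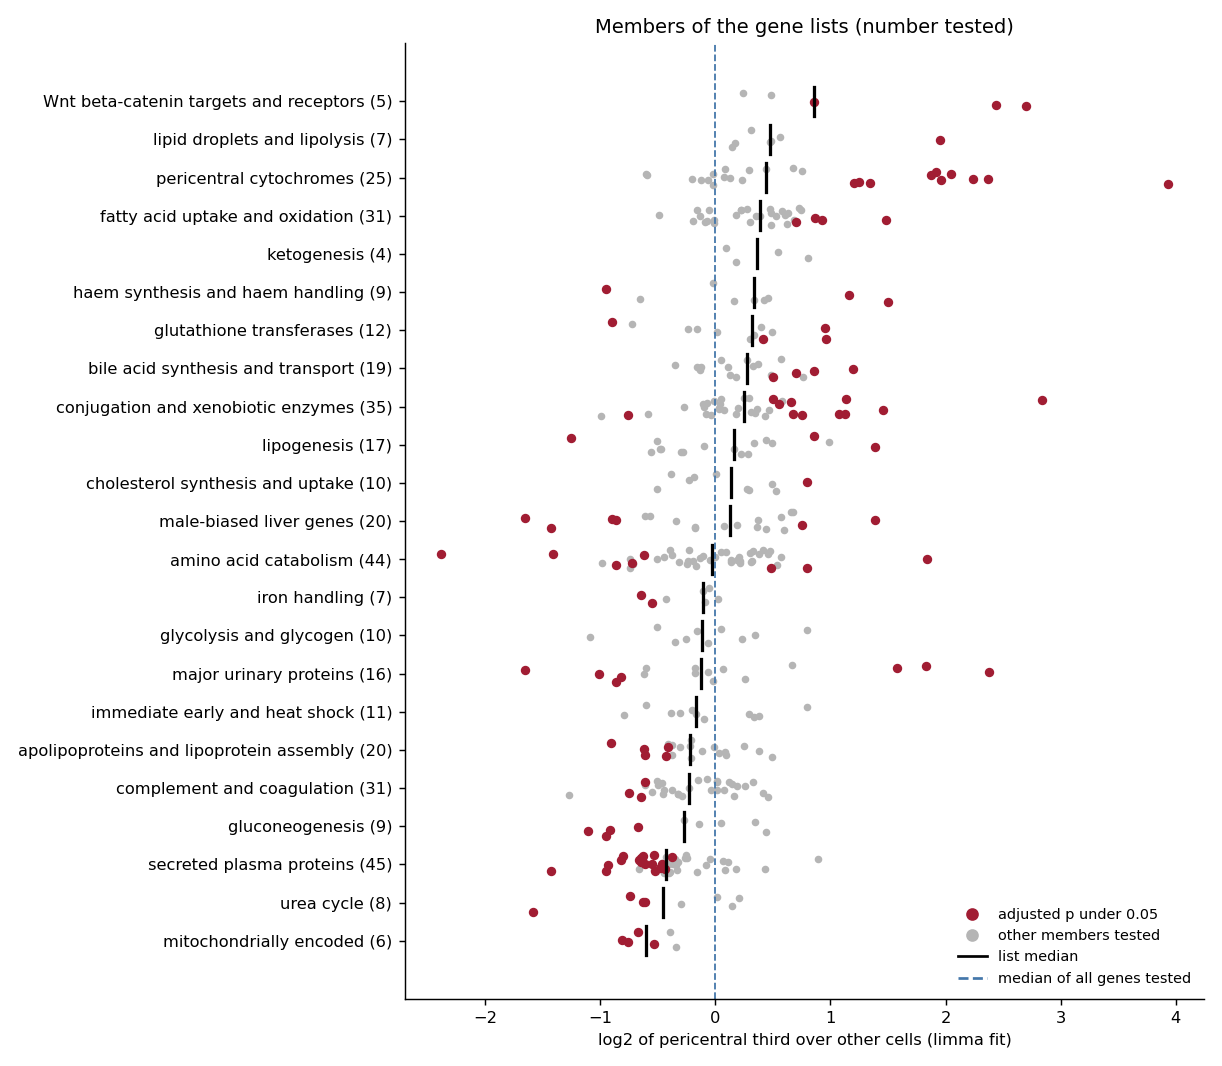
Limma log2 difference between the pericentral cells and the other cells (horizontal axis) for each tested member of 23 gene lists (vertical axis, number tested in brackets), with called members in red, list medians as black ticks and the median of all genes as a dashed line. Medians run from 0.86 for Wnt targets to -0.60 for mitochondrially encoded messages, and 7 lists have called members on both sides (conjugation enzymes, glutathione transferases, haem, lipogenesis, amino acid catabolism, major urinary proteins and male-biased genes).

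Against the midlobular neighbours the differences were smaller, and against the periportal end larger. Of 1378 genes tested against the midlobular cells, 89 were called (6.46%), 42 higher (3.05%) and 47 lower (3.41%). Of 1410 tested against the periportal cells, 199 were called (14.1%), 87 higher (6.17%) and 112 lower (7.94%). Leaving out 1 mouse gave 38 to 117 calls in the first of these (fewest without HFD mouse 2, 41 without LFD mouse 2 and most without HFD mouse 3) and 74 to 256 in the second (fewest without HFD mouse 2, 135 without LFD mouse 2, most without HFD mouse 3). Cyp2a5 was 3.55 (SE 0.41) above the midlobular and 4.32 (SE 0.43) above the periportal cells on the log2 scale, so most of its step lay at the inner border. Cyp2c29 was 1.64 (SE 0.18) and 3.54 (SE 0.28) above, and Cyp2c50 1.11 (SE 0.20) and 3.21 (SE 0.31) above, so these fell again between the midlobular and the periportal cells. Alb was -0.82 (SE 0.12) and -1.04 (SE 0.12) and Fbp1 -0.97 (SE 0.16) and -1.23 (SE 0.16) in the same order. All of these passed an adjusted p of 0.05 in limma in both fits. The difference between the fits was not tested.

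By group, the same 4 urea cycle genes were lower against either neighbour, as were Fbp1 and Pck1. Fatty acid uptake and oxidation had 2 genes called against the midlobular cells (Acaa1b among them) and 7 against the periportal cells, Acaa1b, Acaa1a, Eci2, Fabp2, Acsl1 and Acads among them. Of the mitochondrially encoded messages 3 of 6 were lower against the midlobular and 6 of 6 against the periportal cells (median -0.71). Cyp2a12 and Cyp4v3 were lower against the periportal cells, where 10 other cytochromes were higher. Complement genes had 6 lower and 1 higher, Mbl2, against the periportal cells.

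The major urinary proteins (Mups), pheromone carriers that male mouse liver secretes in bulk, ran in opposite directions. Mup17 was at 5242, 9752, 2962 and 56.5 in the third and 1011, 1689, 422 and 73.6 in the other cells (log2 difference 2.37, SE 0.16, adjusted p = 5.81e-12, limma). It was higher by a wide margin in 3 mice, while HFD mouse 3 had 1 UMI in the third. Mup18 was at 565, 817, 450.4 and 0 against 143, 273, 80.4 and 0 (log2 difference 1.83, SE 0.22, adjusted p = 3.00e-07) and Mup9 at 574, 1594, 398 and 0 against 131, 418, 171 and 0 (log2 difference 1.58, SE 0.20, adjusted p = 1.34e-06). No UMI of either was found in HFD mouse 3. On the other side, Mup20, the male pheromone darcin, was at 7043, 4340.3, 7475 and 4354 against 14740.1, 17683, 25952 and 8017 (log2 difference -1.66, SE 0.15, adjusted p = 1.46e-09) and Mup3 at 24276, 19464, 26883 and 10348 against 34718, 35375, 46934 and 16501 (log2 difference -0.87, SE 0.12, adjusted p = 2.37e-06), each lower in 4 of 4 mice. Mup21 (log2 difference -1.01) and Mup1 (-0.82) also fell.

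The family's 22 listed genes gave 16 tested, 3 higher and 4 lower (median -0.12, which was 0.01 with scaling by total UMIs). Without the 1 cell the call of Mup1 was lost. Its sum was 4.98%, 4.83%, 4.98% and 1.72% of UMIs in the third against 6.29%, 7.52%, 8.15% and 2.59% in the other cells, lower in 4 of 4 mice. The called genes lie in 1 cluster on chromosome 4 (GRCm38). Mup9 starts at 60418046, Mup17 at 61591929 and Mup18 at 61670177. Mup1, which fell, starts at 60498012, between Mup9 and Mup17, which rose. Mup20, Mup3 and Mup21 lie beyond Mup18, at 62050234, 62083476 and 62147932. The central members of the cluster are near-identical copies, so the split of reads among Mup9, Mup17, Mup18 and their neighbours is uncertain, while Mup3, Mup20 and Mup21 differ more from the rest.

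**Figure D4:**
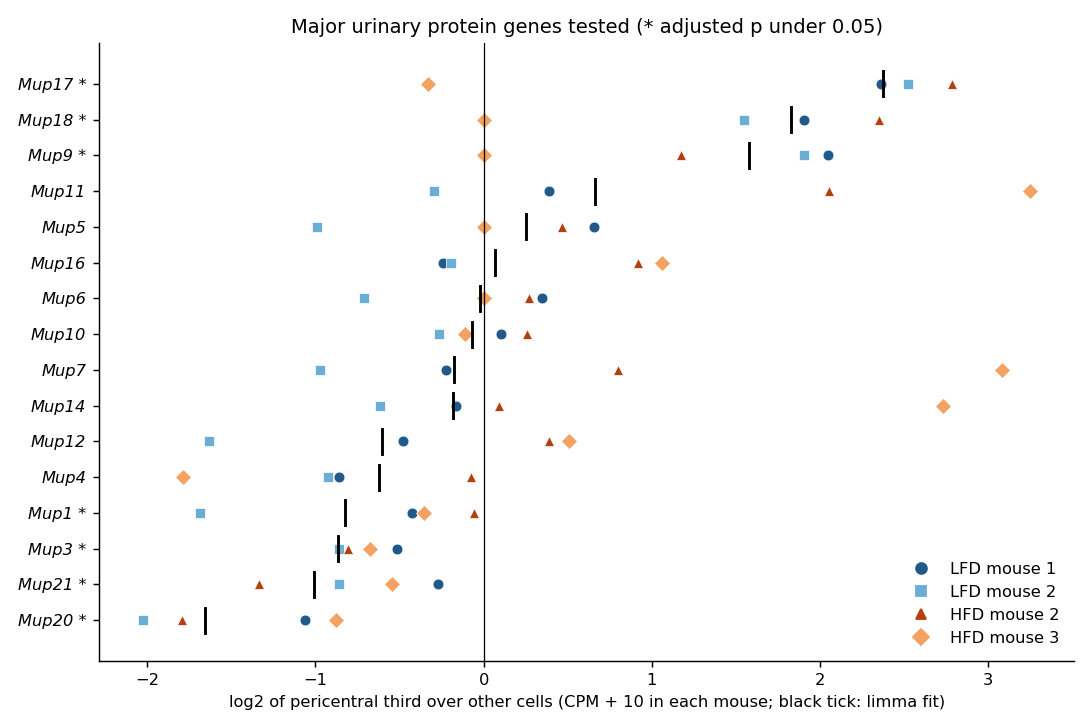
Log2 ratio of CPM plus 10 between the pericentral cells and the other cells (horizontal axis) in each mouse (points) and in the limma fit (black ticks) for the 16 Mup genes tested (vertical axis). Mup17, Mup18 and Mup9 lie right of 0 in 3 mice and at or left of 0 in HFD mouse 3, and Mup20 and Mup3 lie left of 0 in all 4 mice.

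Members also differed among themselves. In the 3 mice with enough members, the inner members were set against the outer members. Of 901 genes tested 2 were higher (0.222%) and 16 lower (1.78%) in the inner members. Mup9 was at 711, 2968 and 547 CPM in the inner and 453, 504 and 263 in the outer members (log2 difference 1.42, SE 0.30, adjusted p = 0.0335, limma). Neat1, a nuclear long noncoding RNA, was at 346, 727 and 350.3 against 168, 264 and 170.0 (log2 difference 1.08, SE 0.25, adjusted p = 0.0456). Alb went on falling toward the inner end, at 22729, 19260.5 and 26330.0 against 29854, 22845 and 36527 (log2 difference -0.47, SE 0.06, adjusted p = 0.00507), and so did Mup3 (log2 difference -0.42, SE 0.06, adjusted p = 0.00940) and Ttr, the thyroxine carrier (log2 difference -0.30, SE 0.06, adjusted p = 0.0292).

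Cps1 was at 865, 1302 and 572 in the inner against 1409.7, 2186 and 1105 in the outer members (log2 difference -0.87, SE 0.15, adjusted p = 0.0211, limma), a larger difference than that between the third and the other cells, though the 2 differences were not tested against each other. Pigr, the receptor that carries IgA into bile, was at 769, 878 and 624 against 990.1, 1849.7 and 1360.3 (log2 difference -0.96, SE 0.17, adjusted p = 0.0292). Mup18, Mup17 and Cyp2a5 had adjusted p of 0.0725, 0.0725 and 0.0785 and were not called, with log2 differences of 0.78, 0.58 and 1.44. These calls rest on few mice: without HFD mouse 2 none of them held and 57 genes had an unadjusted p under 0.05, without LFD mouse 1 6 were called and without LFD mouse 2 20.

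Diet was compared inside the third, 2 LFD against 2 HFD mice. Of 1416 genes tested, limma called 0 higher and 11 lower (0.777%) in HFD, and 177 had an unadjusted p under 0.05. With only these mice, values that do not overlap between diets are common: 250 genes (17.7%) were higher and 307 (21.7%) lower in both HFD mice than in both LFD mice. The 11 calls were lost without LFD mouse 1, LFD mouse 2 or HFD mouse 2 (0 called in each limma fit, where an unadjusted p under 0.05 was seen for 239, 295 and 164 genes), where the lone mouse left in a diet was assumed to vary like the others. Leaving out HFD mouse 3 also left a lone HFD mouse, under the same assumption, so that fit rests on the spread of the LFD mice alone.

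Cyp3a11, the main drug-metabolising cytochrome of the mouse Cyp3a family, was at 4229.7, 3764, 223 and 1414 CPM (log2 difference -3.48, SE 0.47, adjusted p = 0.00690). Both HFD mice lay below both LFD mice. One member of HFD mouse 3 with 3837 of the 17684 UMIs of that mouse's members held 23 of the 25 Cyp3a11 UMIs, 11 of the 12 of Cyp2a5 and 15 of the 18 of Mup11, and without that cell the Cyp3a11 difference was -4.17 (adjusted p = 0.000320, limma). Without it 4 genes were called lower: Egfr, Cyp3a11, Orm1 and Selenbp2. That cell was chosen after its values were seen.

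Egfr, the epidermal growth factor receptor, was at 367, 322, 36.5 and 56.5 (log2 difference -3.04, SE 0.40, adjusted p = 0.00690, limma), with 9 UMIs and 1 UMI in the members of the HFD mice. Selenbp2, a selenium-binding protein of male liver, was at 529, 1165, 28.4 and 0 (log2 difference -4.66, SE 0.69, adjusted p = 0.00762, limma). Its 0 in HFD mouse 3 allows up to 170 CPM if its UMIs are spread evenly over cells. Orm1, an acute phase glycoprotein, was at 1595, 1460.2, 369 and 622 (log2 difference -1.83, SE 0.27, adjusted p = 0.00762). In each of these genes the LFD values were close to each other next to the gap, except for Selenbp2, where LFD mouse 2 was well above LFD mouse 1. Without HFD mouse 2 the differences were -2.04 for Egfr (adjusted p = 0.112), -1.23 for Orm1 (0.223) and -1.47 for Cyp3a11 (0.149).

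Of the other genes called lower, Upp2, uridine phosphorylase, was at 206, 255, 32.5 and 113 (log2 difference -2.54, SE 0.43, adjusted p = 0.0210, limma). Ces2a, a carboxylesterase, was at 565, 429, 129.9 and 113 (log2 difference -1.88, SE 0.34, adjusted p = 0.0295) and Inmt, an amine methyltransferase, at 878, 737, 219 and 509 (log2 difference -1.69, SE 0.31, adjusted p = 0.0311). Serpina3k and Serpina1e, secreted protease inhibitors, were at 8244, 8131, 3965 and 3279.8 (log2 difference -1.14, SE 0.21, adjusted p = 0.0311) and 4373, 2746, 1002 and 226 (log2 difference -2.23, SE 0.44, adjusted p = 0.0435). Gstp1 was at 2527, 1031, 345 and 509 (log2 difference -2.09, SE 0.42, adjusted p = 0.0468). All lay lower in both HFD mice, and the Serpina1, Serpina3 and Ces2 genes have close paralogs among which reads could be split. Cyp2c29 was the eleventh (log2 difference -1.70, adjusted p = 0.0493) and falls outside the naming rule.

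No gene was called higher in HFD. The 5 of smallest p with both HFD mice above both LFD mice were Aldh3a2, Serpina3m, Cyp4a14, Elovl5 and Apoa4. Aldh3a2 was at 108, 214, 454 and 509 (log2 difference 1.67, SE 0.35, adjusted p = 0.0547, limma) and Serpina3m at 80.7, 80.4, 284 and 226 (log2 difference 1.75, SE 0.39, adjusted p = 0.0782). Cyp4a14, a fatty acid omega-hydroxylase, was at 108, 40.2, 467 and 113 (log2 difference 2.34, SE 0.55, adjusted p = 0.116), Elovl5, an elongase of polyunsaturated fatty acids, at 134, 107, 377 and 169.6 (log2 difference 1.55, SE 0.37, adjusted p = 0.116) and Apoa4 at 35.8, 53.6, 268 and 396 (log2 difference 2.66, SE 0.66, adjusted p = 0.128). In Cyp4a14 and Elovl5 the HFD mouse 3 value rests on 2 and 3 UMIs.

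By list, male-biased liver genes had the lowest median in HFD: 18 of 20 tested lay below 0 and 5 fell (Egfr, Selenbp2, Ces2a, Serpina1e and Gstp1), with a median of -1.13 against 0.00 over all genes. The pericentral cytochromes had 17 of 25 below 0 and 2 that fell (median -0.32). Lipid droplet genes had the highest median, 1.28, with 5 of 7 above 0 and 0 called. Glycolysis and glycogen had 8 of 8 above 0 (median 0.56), fatty acid uptake and oxidation 25 of 31 (median 0.35) and ketogenesis 4 of 4 (median 0.53), each with 0 called. All of these medians come from the same 4 mice.

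**Figure D5:**
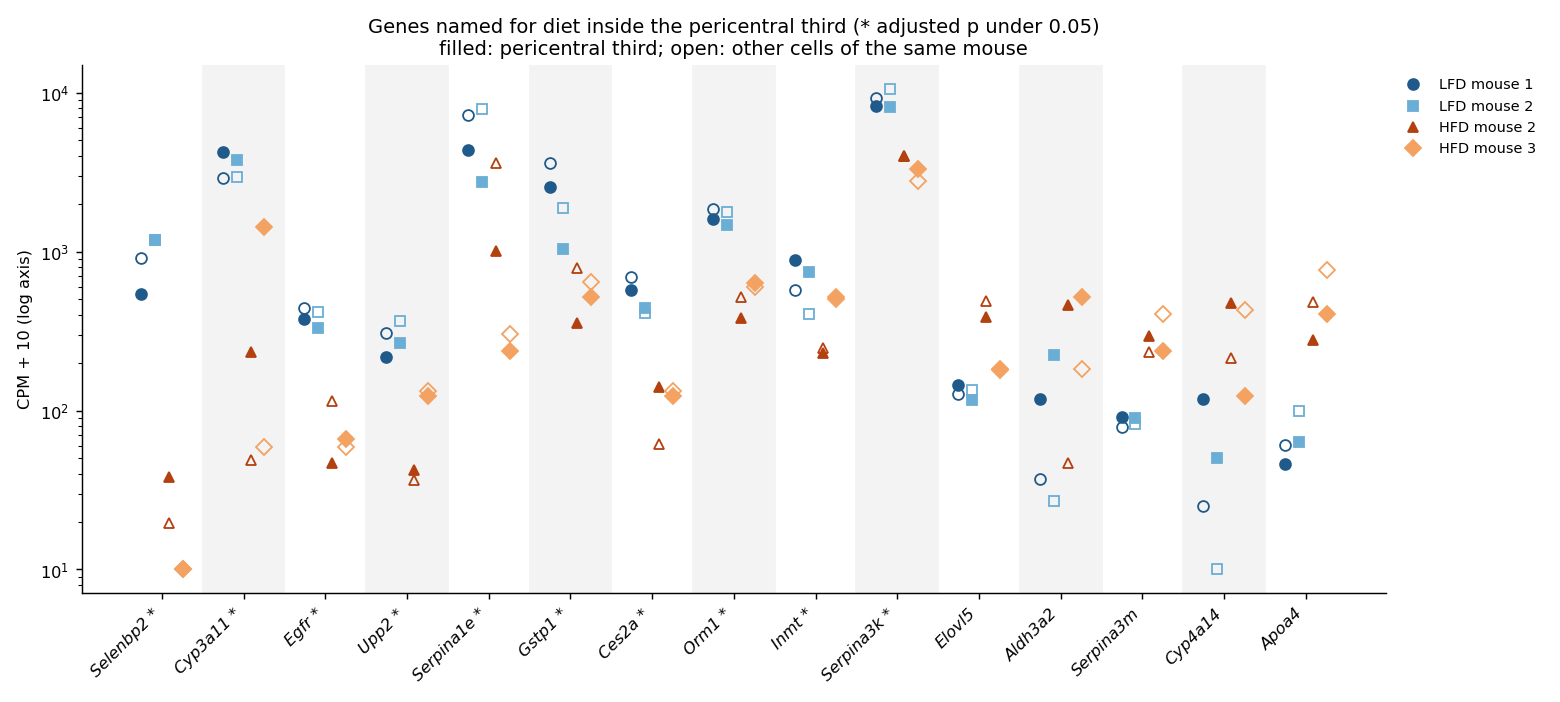
CPM plus 10 on a log axis (vertical) of the genes named for diet (horizontal axis), with the pericentral cells filled and the other cells of the same mouse open. For the 10 genes with an asterisk (adjusted p under 0.05 in limma) members of both HFD mice lie below members of both LFD mice, and for Cyp3a11 the filled HFD points, at 223 and 1414 CPM, stand above the open ones, at 39.0 and 49.0 CPM.

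Whether diet acted differently in the third than in the other cells was tested as an interaction over 2008 genes, and 1 passed (0.0498%), while 62 had an unadjusted p under 0.05. Mup11 was at 5448, 6698, 5782 and 1018 in the third and 4161, 8212, 1384 and 98.1 in the other cells. Inside the third, HFD mouse 2 lay between the LFD mice, and the diet difference of -0.98 on the log2 scale was not called (adjusted p = 0.456, limma). The fitted HFD over LFD difference was less negative there than in the other cells, by 2.10 (SE 0.35, adjusted p = 0.0168, limma). Leaving out LFD mouse 2 (1.64, adjusted p = 0.0694) or the 1 cell of HFD mouse 3 (1.90, adjusted p = 0.204) ended the call, as did thinning, the deposited log means and both other ways to build the score, and Mup11 is among the near-identical copies of its cluster.

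Cyp3a11 had the next smallest p and was not called (log2 difference 2.59, SE 0.53, adjusted p = 0.0883, limma; 1.76 and 1.00 without the 1 cell). Its level in the other cells was 2893, 2948, 39.0 and 49.0. In HFD mouse 2, 24 of 69 members had a Cyp3a11 UMI (34.8%, exact 95% Clopper-Pearson interval 23.7% to 47.2%, counting error only), against 7 of 70 midlobular cells (10%) and 3 of 69 periportal cells (4.35%). Among the cells with at least 1727 UMIs, thinned to that number, the shares were 15 of 49 (30.6%), 2 of 37 (5.41%) and 2 of 48 (4.17%). In the LFD mice 92.9% to 100% of pericentral, midlobular and periportal cells alike had one. Mup7 (1.5, adjusted p = 0.847), Sirt3 (2.41, 0.999) and Mup12 (1.43, 0.999) followed and were not called. The number of interaction calls changed widely with the mouse left out. Each such fit left a lone mouse in 1 diet, assumed to vary like the others.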

How the data were processed

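Hepatocytes of 2 LFD and 3 HFD mice were profiled by Drop-seq, and the sample titles gave mouse and diet. The aligner STAR 2.6.0a and the build mm10 are named in the submitters' processing notes. The sources used here do not give the cell filter or the treatment of doublets, strand and shared reads, and no doublet caller was run. The table that the authors deposited holds natural log values, ln of 1 plus UMIs per 10000 UMIs of a cell, for 18018 genes and 454 cells, as the values show. All values above 0 (100%) were whole multiples of their cell's smallest step within a tolerance of 0.001, so whole UMIs were recovered.

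UMIs were summed per mouse and side, and genes with a mean of at least 10 UMIs per sum entered limma voom fits (R 4.3.3 with limma 3.58.1) with trimmed-mean factors (30% of ratios and 5% of levels trimmed) and, within mice, the mouse as a term. The threshold was a Benjamini-Hochberg adjusted p of 0.05 over all genes tested. The 12 score genes were left out. Log2 differences are pericentral over other cells, inner over outer members, or HFD over LFD. The fits were checked on simulated data, with 50 genes changed by each log2 step of -2, -1, 1 and 2. Against the other cells, 80%, 20%, 48% and 100% of these were recovered in that order. For diet it was 42%, 8%, 8% and 70%, and for the interaction 22%, 0%, 0% and 22%. Most changes of 1 on the log2 scale, in either direction, were thus missed against the other cells, for diet and for the interaction at the simulated spread. Single values were tested by exact sign flips (SciPy 1.17.1).

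The members, the 23 gene lists and the tests were chosen with earlier results of these data known. The text names 12 genes per direction with the same sign in all 4 mice, up to 3 called members of each list or else the 2 of highest CPM, 10 genes for diet per direction (5 where under 3 were called), and 5 each for the interaction and for each direction of the inner members. Predicted gene models were passed over. A few genes that this rule selects are not reported here. Promoters are from RefSeq (GRCm38.p6), gene positions from GENCODE on GRCm38. Total UMIs as scaling, means of the deposited values, other minima, thinning to 1727 UMIs (shallower cells left out), other score cuts and leaving out mice or cells were tried as alternatives.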

Additional observations from a re-analysis of the deposited data

Results flagged for a closer look

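The diet effect on Mup11 differed between the pericentral cells and the other cells by a test of the difference itself, with an interaction of 2.10 on the log2 scale (limma, adjusted p = 0.0168). The call was lost in 6 of 16 alternatives: without LFD mouse 2 (adjusted p = 0.0694), without 1 cell of HFD mouse 3 (0.204), among thinned cells (0.374), with score genes of equal weight (0.175), with a score without Cyp2e1 and Cyp2f2 (0.215) and with means of the deposited values (0.805). In the third, Mup11 was at 5448 and 6698 CPM in the LFD mice and at 5782 and 1018 in the HFD mice, and in the other cells at 4161 and 8212 against 1384 and 98.1. In HFD mouse 2, 67 of 69 members and 105 of 139 other cells had a Mup11 UMI. In HFD mouse 3 there were 18 UMIs in the third, 15 of them in 1 cell, and 4 in the other cells.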

How the results depend on the processing

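Means of the deposited natural log values (limma-trend) gave 40 genes for the pericentral against the other cells, 27 against the midlobular cells, 61 against the periportal cells, 2 for diet and 0 for the interaction (124 at an unadjusted p under 0.05). In these fits 25 of the 54 named calls against the other cells and 8 of 10 for diet were lost. Against the other cells they included Nr1i3 (adjusted p = 0.0856, limma-trend), Cyp4a10 (0.0507), Fgb (0.0530), Hrsp12 (0.0711), Fgg, Gstm1 and Gsta3. Thinned cells gave 77 genes against the other cells, 4 for diet and 0 for the interaction, and 8 of the 48 named calls that could be tested were lost against the other cells (Akr1c6, Cps1, Hmgcs1, Cfi, C8a, Apoc2, Apoa4 and Apoa1). Without the 1 cell of HFD mouse 3, an alternative chosen after seeing the data, the counts were 96, 4 and 0. Without the mouse as a term, 29 genes were called against the other cells, and 34 of the 54 genes named and called there lost their call, among them Mup17 (adjusted p = 0.541, limma), Mup3 (0.311), Serpina1e (0.683), Gstp1 (0.619), Hpx (0.308), Cyp2c29 (0.0728), Cyp2c50 (0.0765) and Csad (0.160). Leaving out 1 mouse gave 81 to 253 genes against the other cells, 38 to 117 against the midlobular cells, 74 to 256 against the periportal cells, 0 to 20 for the inner members, 0 to 31 for diet and 0 to 132 for the interaction.

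Diet calls numbered 6 with no minimum beyond 1 UMI, 2 with a minimum of 50 UMIs and 6 without cells with other markers. Interaction calls numbered 3 with no minimum, 4 with a minimum of 50, 2 with the top 25%, 4 with the top 50% and 0 with score genes of equal weight. With scaling by total UMIs the median of all genes against the other cells moved from -0.01 to 0.13, and 114 genes were higher and 48 lower in place of 77 and 78. That scaling gave 146 higher and 69 lower in place of 87 and 112 against the periportal cells, 63 and 30 in place of 42 and 47 against the midlobular cells, and 8 and 12 in place of 2 and 16 for the inner members. No single gene named in the text and called there changed direction under any of these. For diet, no paired analysis was possible because the LFD and HFD mice compared share only replicate number 2. Whether a shared number marks a pair of mice is not stated. Comparisons within mice did pair the sides, with the mouse as a term. The 8 members of HFD mouse 3 limit every value of that mouse, where 3 UMIs are 170 CPM.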
